A study of Mus musculus with 15 samples.

Results

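The mitochondrially encoded genes of mouse are the 37 genes that lie on the mitochondrial chromosome, and they were chosen by name, as every gene whose GENCODE M21 symbol starts with mt-. They are 37 of the 52844 genes to which the deposited transcripts were summed. They comprise 13 mRNAs, 2 ribosomal RNAs (rRNAs) and 22 transfer RNAs (tRNAs). Gene expression was measured by bulk sequencing of polyadenylated RNA from cells released from the jejunal epithelium of 15 mice of the inbred Collaborative Cross strain CC027/GeniUnc, with paired reads of 151 bases. The mice formed 5 groups of 3. PBS controls received phosphate-buffered saline (PBS) by gavage in the sensitization phase and no challenge. Sensitized controls received 2 mg of crude peanut extract by gavage weekly for 3 weeks and 5 mg in week 4, and no challenge. The other 3 groups were sensitized in the same way, were later given a challenge gavage of 12 mg peanut extract, and had tissue taken 30, 60 or 120 min later. Mice given PBS and then challenged were not analysed here, so peanut challenge cannot be told apart from gavage, handling and time of day. The titles of the challenged samples open with a number that differs from sample to sample, and they do not state whether it names a mouse. The p-values thus measure the spread between these samples. Tissue of all 15 samples went through an incubation of 75 min with DTT (0.5 mM) plus EDTA (2 mM). It lasted longer than the 30 and 60 min challenge intervals, which run to the taking of tissue. The effect of the incubation on RNA levels was not tested.

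Mitochondrial DNA is a small circle that is transcribed from both strands into long precursors. Excision of the tRNAs that punctuate these precursors releases the mRNAs and rRNAs, most of which then receive short poly(A) tails. The mRNAs encode core subunits of respiratory complexes I, III and IV and of the ATP synthase (complex V), which are assembled with subunits made from nuclear genes, and the rRNAs form the mitochondrial ribosome that translates them. In the small intestine, absorptive cells of the villus use oxidative phosphorylation to drive nutrient uptake.

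The libraries held between 15661513 and 22691349 estimated counts. Estimated counts are reads assigned to a transcript by a model, and they need not be whole. The 8 epithelial marker genes (such as Epcam and Krt8) had a mean log2 CPM (CPM are counts scaled to a common library size, here with the TMM factors of edgeR) of 9.81 to 10.43 in every library. The lowest summed level of these markers, 10160 CPM, was in 60 min replicate 3, and the other 14 libraries had 10780 to 14290 CPM. Markers of stroma and endothelium summed to 173 CPM in 30 min replicate 1 and to 1.99 to 10.3 CPM in the other libraries. Markers of T cells and intraepithelial lymphocytes summed to 17.5 to 53.3 CPM at 120 min and to 52.9 to 209 CPM in the sensitized controls, and all 6 of these genes were lower on average at 120 min, with none past the test. Other marker sums at 120 min did not overlap those of the sensitized controls. Lower at 120 min were B and plasma cell markers (22.6 to 56.9 against 120 to 210 CPM), goblet cell markers (7518 to 8273 against 9880 to 16100 CPM) and Paneth cell markers (1792 to 3608 against 3872 to 4660 CPM). Mucosal mast cell markers (18.9 to 25.2 against 27.8 to 46.6 CPM) and erythroid markers (77.5 to 87.2 against 125 to 179 CPM) were lower too. Epithelial markers were higher, at 13860 to 14290 against 12260 to 12640 CPM. Markers of proliferating crypt cells were higher too, at 489 to 735 against 384 to 452 CPM. No gene of these lists passed the test in that comparison. Their part in the results for the mitochondrially encoded genes was not tested.

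The nuclear genome holds old insertions of mitochondrial DNA, and the annotation lists 11 nuclear transcripts that match a mitochondrial transcript at 95% identity or more over at least 200 bases. Of these, 8 held counts, and together they took between 3.76% and 8.35% of a library. The copy with the most counts, Gm13340, is an unprocessed pseudogene on the minus strand of chr2:22588103-22589647 (GRCm38). It matches mt-Co1 (chrM:5328-6872, plus strand), the gene of the catalytic core subunit of complex IV, along all 1545 bases, of which 37 differ. The stretch of 120 bases with the most differences, bases 1174 to 1293 of both transcripts, is printed for each from the GENCODE M21 transcripts, because the counts of both genes depend on telling these letters apart. Capitals mark the 6 bases that differ.
mt-Co1, chrM:6501-6620, plus strand: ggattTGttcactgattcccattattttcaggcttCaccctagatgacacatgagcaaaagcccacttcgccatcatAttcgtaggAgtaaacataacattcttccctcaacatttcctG
Gm13340, chr2:22588355-22588474, minus strand: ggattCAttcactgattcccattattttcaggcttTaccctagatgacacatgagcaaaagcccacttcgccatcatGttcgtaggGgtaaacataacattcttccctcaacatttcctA
None of the 1395 windows of 151 bases (1 read length) in mt-Co1 occurs in the annotated Gm13340 transcript. Yet the estimated count of Gm13340 was close to that of mt-Co1 in every library, with ratios from 0.965 in 60 min replicate 3 to 1.064 in sensitized replicate 3. In percent of the library, mt-Co1 and Gm13340 were 5.26 and 5.24 in PBS replicate 1, and 2.82 and 2.74 in 60 min replicate 1. The mitochondrial sequence of CC027/GeniUnc was not used here, and why both transcripts received nearly equal counts was not tested.

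**Figure D1:**
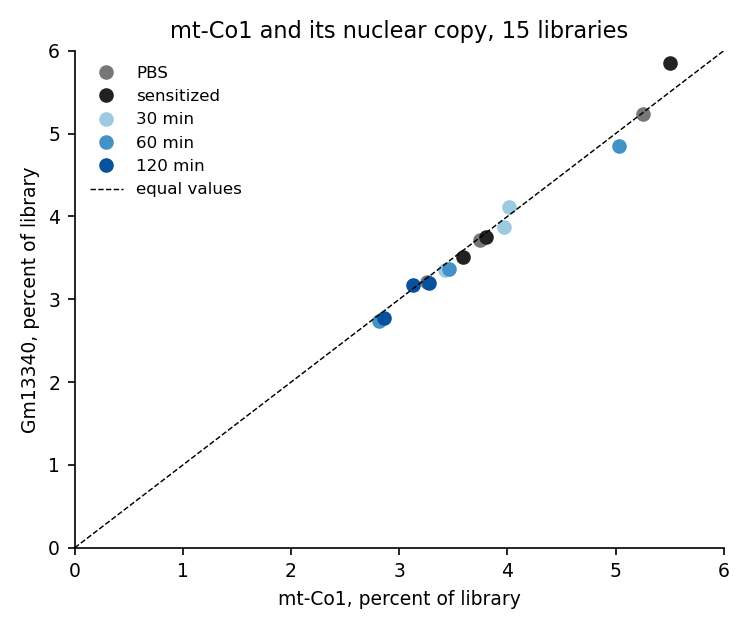
Percent of each library's estimated counts assigned to mt-Co1 (horizontal axis) and to its nuclear copy Gm13340 (vertical axis). Each point is 1 of 15 libraries, coloured by group, and the dashed line marks equal values. The points lie close to that line, with ratios of 0.965 to 1.064.

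Other members also had copies with counts. Gm13341, a copy of mt-Co2 at 95.91% identity, had 0.587 to 0.94 counts per count of mt-Co2, and Gm13339, a copy of part of mt-Nd2 at 96.67% identity, had 0.444 to 0.51 per count of mt-Nd2. Gm28438 on chromosome 1 matches mt-Nd3 at 99.71% identity and had 0.894 to 2.039 counts per count of mt-Nd3, with the highest ratio in sensitized replicate 3. For mt-Nd3, 97% of windows of 1 read length occur unchanged in Gm28438. Gm4076, a copy of part of mt-Nd5, had 0.028 to 0.033 per count of mt-Nd5. The other copies with counts were Gm29216, Gm28439 and Gm10925, with at most 0.038 counts per count of the member they match. Gm10222, Gm28661 and Gm28437, which match mt-Nd4l, mt-Co2 and mt-Co3 with no mismatch, were at 0 in every library. The levels of mt-Co1, mt-Co2, mt-Nd2 and mt-Nd3 are therefore uncertain. Windows of 1 read length also occur unchanged in a copy for mt-Co3 (99.8%), mt-Atp6 (99.4%), mt-Nd4l (98%) and mt-Nd4 (59.1%). For these members the low or 0 counts of the copies are the model's split, so their levels are uncertain too. The summed share, the make-up of the mitochondrial counts and the median fold changes are also given with the counts of the copies added, and the other values of these genes are without them.

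Some members overlap on the chromosome itself. The gene of the ATP synthase subunit mt-Atp8 (chrM:7766-7969) ends inside mt-Atp6 (chrM:7927-8607), and mt-Nd4l (chrM:9877-10173) ends inside mt-Nd4 (chrM:10167-11544). The last 60 bases of the upstream gene are shown for both pairs, with the bases that also belong to the downstream gene in capitals, 43 in the first pair and 7 in the second.
mt-Atp8, chrM:7910-7969, plus strand: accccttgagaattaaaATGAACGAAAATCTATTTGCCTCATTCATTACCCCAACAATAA
mt-Nd4l, chrM:10114-10173, plus strand: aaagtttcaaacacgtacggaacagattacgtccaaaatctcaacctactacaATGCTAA
Both capital runs open with ATG, the start codon of the downstream gene. Each pair is known to stay joined on 1 mRNA in the cell, so the split of its counts between the 2 genes is the model's. The sources used here do not say whether counting used strand.

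The 16 members with any count were the 13 mRNAs, both rRNAs and 1 tRNA. The other 21 tRNAs were at 0 in every library. For counting error alone, a count of 0 was taken to allow up to 3 counts, which is 0.192 CPM in the shallowest library. The tRNAs have 59 to 75 bases, shorter than 1 read, and that limit does not cover whether such RNAs are captured. The tRNA with counts, mt-Ts1, had at most 2 in a library and was above 0 in 9 of 15. Its whole sequence, chrM:6870-6938 on the minus strand, is shorter than 1 read, and the capitals mark its 3 bases that lie opposite the end of mt-Co1.
mt-Ts1, chrM:6870-6938, minus strand: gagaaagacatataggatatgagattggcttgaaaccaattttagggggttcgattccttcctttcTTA
The 15 mRNAs and rRNAs passed the filter on low counts and were tested among 14968 genes.

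Mitochondrially encoded RNA took a median of 18.1% of the estimated counts of a library. In PBS controls the share was 25.36%, 18.45% and 15.42%, a mean of 19.74% ± 5.1 (SD, n = 3). In sensitized controls it was 18.1%, 17.06% and 26.61%, a mean of 20.59% ± 5.24. At 30 min after challenge the share was 16.85%, 19.54% and 20.47%, a mean of 18.95% ± 1.88. At 60 min it was 13.98%, 18.14% and 33.09%, a mean of 21.74% ± 10.05, so this group held both the second lowest and the highest library of the study. At 120 min it was 13.67%, 16.51% and 15.61%, a mean of 15.27% ± 1.45. The 3 libraries at 120 min all lay below the 3 sensitized controls in mitochondrial share. A sum over chosen genes was not tested. In bulk RNA, fewer cells rich in mitochondria and less mitochondrial RNA per cell cannot be told apart. The counting error is small beside this spread. In the shallowest library, 30 min replicate 2, the 95% Wilson interval of the share was 19.52% to 19.56%, and it covers counting error only.

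With the nuclear copies added, the share ran from 17.43% to 40.78%, and the 120 min libraries (17.43% to 21.02%) again lay below the sensitized controls (21.81% to 34.96%). In TPM (a deposited unit of abundance that divides by effective length), the members held 33.68% to 61.46% of a library, and on that scale the 120 min libraries (35.92% to 42.5%) overlapped the sensitized controls (40.93% to 50.42%).

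**Figure D2:**
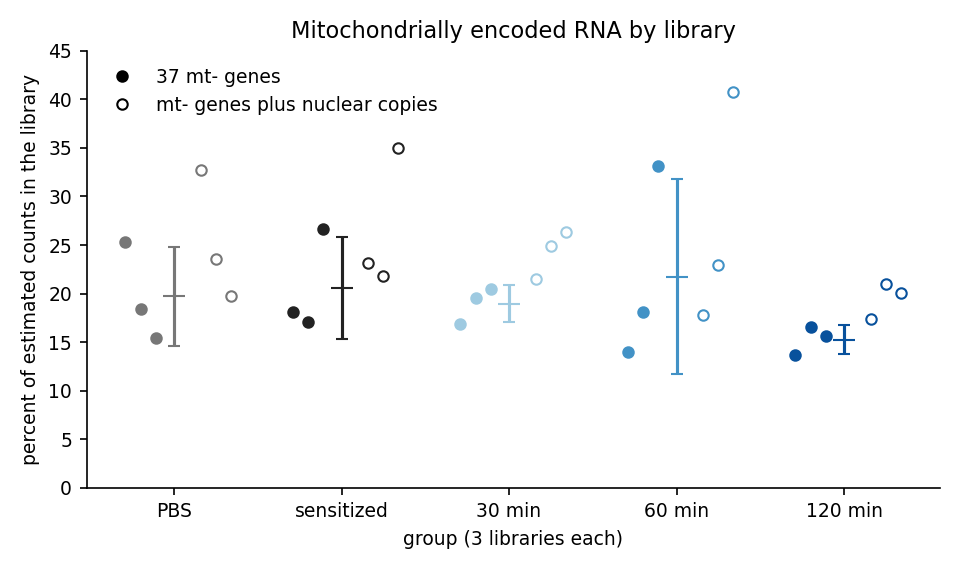
Percent of each library's estimated counts from the 37 mitochondrially encoded genes (filled circles) and with nuclear copies added (open circles), by group. Horizontal ticks and bars give the mean and SD of the filled circles (n = 3). The highest filled circle, 33.09%, is 60 min replicate 3, and the 3 libraries at 120 min lie between 13.67% and 16.51%.

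Complex IV genes took 35.02% to 43.15% of the mitochondrial counts per library, the largest part of any complex except in 60 min replicate 3, where complex I took more. mt-Co1 alone had a median of 3.59% of the library and ranged from 2.82% to 5.5%. mt-Co3, the third core subunit, had a median of 2.46% (1.81% to 4.07%), and mt-Co2, which carries the copper site that accepts electrons from cytochrome c, had 1.25% (0.996% to 2.49%). The 7 complex I genes, subunits of the enzyme that oxidizes NADH, took 29.64% to 38.88% of the mitochondrial counts. Among them mt-Nd4 had a median of 2.07% of the library and mt-Nd1 one of 1.42%. The medians of mt-Nd5 and mt-Nd2 were 0.894% and 0.839%, and those of mt-Nd4l and mt-Nd6 0.235% and 0.197%. mt-Nd3 was the lowest mRNA, at 0.013% to 0.037% of the library, and its copy Gm28438 had a like count. mt-Cytb, cytochrome b of complex III, held a steady 11.71% to 12.87% of the mitochondrial counts, and the ATP synthase genes mt-Atp6 and mt-Atp8 together 10.82% to 11.85%.

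Per length, in TPM, the order was different. The median TPM was 63991 for mt-Co3, 47948 for mt-Atp6, 32188 for mt-Co2, 30764 for mt-Co1 and 25692 for mt-Cytb. It was 22237 for mt-Nd1, 22137 for mt-Nd4, 13236 for mt-Nd2, 7990 for mt-Nd6, the only mRNA on the minus strand, and 5938 for mt-Nd5, the longest mRNA. Several neighbours in this order overlapped over the libraries, among them mt-Co1 (24910 to 41862) with mt-Co2 (26578 to 49409), and mt-Nd1 (18382 to 40015) with mt-Nd4 (17859 to 37261). The shortest mRNAs cannot be ranked in this way. The deposited effective length of mt-Atp8 was 27 to 31 bases for a gene of 204 bases, and its median TPM of 85502 is divided by that small number. For mt-Nd4l the effective length was 43 to 52 of 297 bases.

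The rRNAs are the most abundant transcripts of mitochondria in total RNA, and here they took 2.31% to 3.86% of the mitochondrial counts. mt-Rnr1, the small-subunit rRNA, had a median of 3372 TPM, and mt-Rnr2, the large-subunit rRNA, one of 2000 TPM. In percent of the library mt-Rnr1 was 0.471, 0.201 and 0.217 in PBS controls and 0.263, 0.197 and 0.378 in sensitized controls. The 30 min libraries had 0.217, 0.174 and 0.301, the 60 min libraries 0.126, 0.175 and 0.417, and the 120 min libraries 0.182, 0.169 and 0.177. At 120 min the 3 values were the closest together of any group.

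The members rose and fell together from library to library. Over the 105 pairs of the 15 tested members, the correlation of log2 levels across the 15 libraries had a median of 0.941 and a lowest value of 0.619, between mt-Nd3 and mt-Nd6, and the first principal component held 90.6% of the variance. These points share the library, so they describe a common level and not separate responses.

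The first comparison asked whether sensitization alone moved these genes. In sensitized against PBS controls edgeR's quasi-likelihood test called 0 of 15 members, beside 0 of 14968 genes (0%), and at an unadjusted p under 0.05 there were 0 members and 212 genes. DESeq2 called 6 genes and no member. The median log2 fold change of the members was 0.14, and 0.01 over all genes tested. The change of mt-Co1 was 0.15 ± 0.33 (SE) on the log2 scale. Without sensitized replicate 3 the sign of 13 of 15 members turned, and without PBS replicate 3 that of 12. The first is the highest sensitized library in mitochondrial share and the second the lowest PBS library. On TMM-scaled CPM 0 of 15 members had groups that did not overlap, beside 7.98% of all genes.

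At 30 min after challenge 0 of 15 members passed against sensitized controls in edgeR, beside 0 genes (0%), with 0 members and 755 genes at an unadjusted p under 0.05. DESeq2 called 6 genes and no member. The median log2 fold change of the members was -0.26. For mt-Nd1 it was -0.12 ± 0.43 and for mt-Rnr1 -0.42 ± 0.55. Without sensitized replicate 3, 13 of 15 members changed sign. No member's groups failed to overlap in CPM, beside 14.3% of all genes.

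At 60 min the members' mean levels were above those of sensitized controls for 13 of 15, with a median log2 fold change of 0.28, and none passed the test. edgeR called 1 gene of 14968 (0.00668%), which fell, and 0 members. No member and 1883 genes had an unadjusted p under 0.05, and DESeq2 called 189 genes and no member. The highest values were 0.63 ± 0.45 for mt-Nd6 and 0.56 ± 0.41 for mt-Nd5, while mt-Co1 was at -0.15 ± 0.33. The direction rested on 60 min replicate 3. Without it, 13 of 15 members changed sign and the median was -0.54. With the counts of the nuclear copies added and every library kept, the median was 0.17. All members' groups overlapped in CPM, beside 18.5% of genes that did not.

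At 120 min all 15 members were lower on average than in sensitized controls, and none passed the test. Their median log2 fold change was -0.52, beside -0.01 over all genes, and the members ranged from -0.76 ± 0.55 for mt-Rnr1 to -0.25 ± 0.38 for mt-Atp8. The lowest adjusted p of a member was 0.399 in edgeR. Over all genes edgeR called 187 (1.25%), 108 higher and 79 lower, and 2650 genes but no member had an unadjusted p under 0.05. DESeq2 called 845 genes and no member. With only these 2 groups fitted, 6 members had an unadjusted p under 0.05 and the lowest adjusted p of a member was 0.195 in edgeR. No member changed sign in any of the alternative fits or with any library left out, and the median then ran from -0.69 to -0.19 with 1 library left out. For mt-Co1 the percent of the library was 3.81, 3.59 and 5.5 in sensitized controls and 2.86, 3.28 and 3.13 at 120 min, and the groups did not overlap. mt-Co1, mt-Co2 and mt-Rnr1 lay wholly below the sensitized controls in TMM-scaled CPM, which is 3 of 15 members beside 26.5% of all genes tested, so the members' share was no higher than the background.

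Between 60 and 120 min after challenge the median log2 fold change of the members was -0.77, and 0 of 15 passed in edgeR, beside 168 genes called (1.12%). At an unadjusted p under 0.05 there were 2 members, mt-Nd5 (-0.95 ± 0.41) and mt-Nd4l (-0.95 ± 0.43), and 2954 genes, and the lowest adjusted p of a member in edgeR was 0.22. DESeq2 called 950 genes and no member. In percent of the library mt-Nd5 was 0.72, 1.11 and 2.15 at 60 min and 0.685, 0.837 and 0.813 at 120 min, so the groups overlapped through 60 min replicate 1. Without that library mt-Nd5 passed, with -1.35 and an adjusted p of 0.0342 in edgeR. This is 1 of 15 members beside 7.46% of all genes in that fit, so the share of members called was no higher than the background. At an unadjusted p under 0.05 that fit had 14 members and 4061 of 15421 genes. Without 60 min replicate 2 there were 9 members and 2507 genes, and without replicate 3 there were 0 and 1838. The members rise and fall together, so such counts are not of independent genes. Without 60 min replicate 3 the value of mt-Nd5 was -0.16, and 8 of 15 members changed sign. No member's groups were apart in CPM, beside 20.0% of all genes. Genes of 3 marker lists passed the test in the same comparison. Of 5 Paneth cell markers tested, 4 fell (Itln1, Ang4, Defa24 and Defa30), and the summed level of the list was 6600 to 7701 CPM at 60 min and 1792 to 3608 CPM at 120 min. Of 5 intestinal stem cell markers Lgr5 fell, and of 8 epithelial markers, all higher on average, Krt20 rose. The 8 markers of proliferating crypt cells split into 4 higher and 4 lower, with none past the test. Their part in the lower mitochondrial values was not tested. Tested jointly over the 5 groups, edgeR called 52 genes (0.347%) and 0 members, with 2349 genes and no member at an unadjusted p under 0.05. DESeq2 called 1121 genes and no member. No member had challenged and unchallenged libraries that did not overlap in CPM, beside 0.374% of genes.

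**Figure D3:**
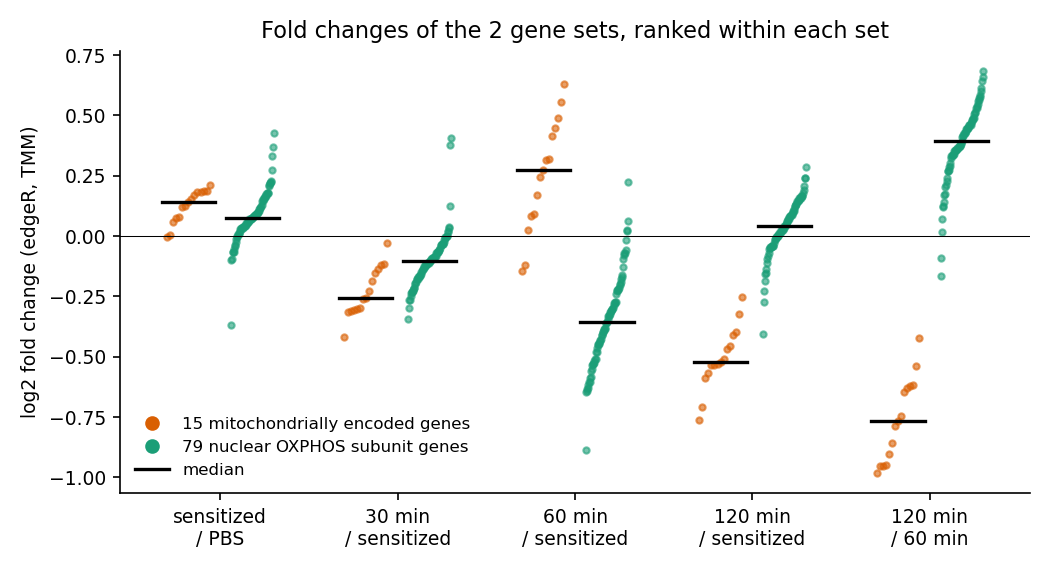
Log2 fold changes from edgeR (vertical axis) of the 15 mitochondrially encoded genes tested and of 79 nuclear genes for oxidative phosphorylation subunits, in 5 comparisons, each set sorted by value, with black bars at the medians. The medians of the 2 sets are 0.28 and -0.36 at 60 min against sensitized controls and -0.77 and 0.39 at 120 against 60 min.

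The make-up of the mitochondrial counts was nearly constant. The summed difference of a library's 15 shares from their medians, divided by 2, was 0.97% to 2.99% in 14 libraries and 8.31% in 60 min replicate 3. In that library mt-Co1 made up 15.2% of the mitochondrial counts, beside 19.06% to 21.13% in the others. Its mt-Nd1 (10.03%), mt-Nd4 (14.22%), mt-Nd5 (6.5%), mt-Nd6 (1.51%) and mt-Nd4l (1.67%) were each the highest of the 15 libraries. These genes encode complex I subunits, and the rRNA mt-Rnr2 (2.15%) was highest there too. The other complex I genes, mt-Nd2 and mt-Nd3, were not highest in that library. Complex I took 38.88% of the mitochondrial counts in 60 min replicate 3 and 29.64% to 34.67% elsewhere. This is also the library with the lowest epithelial marker sum.

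mt-Nd1, a complex I subunit in the membrane arm, took a higher share of the mitochondrial counts in every challenged library than in any unchallenged one. Its share was 7.65%, 7.88% and 7.57% in PBS controls and 7.65%, 7.75% and 7.53% in sensitized controls. The 30 min libraries had 8.41%, 8.31% and 8.35%, the 60 min libraries 8.07%, 8.58% and 10.03%, and the 120 min libraries 8.03%, 8.42% and 8.2%. The lowest of the 9 challenged libraries was thus 8.03% and the highest of the 6 unchallenged ones 7.88%. No other member was separated in this way, beside 0.0200% of all genes (3 of 14968) put on the same scale. Nearly all of those genes are nuclear and carry the spread of the mitochondrial total, so that share is not a like background. This pooled comparison was chosen after the values were seen, so it is a description and has no p. With the counts of the nuclear copies added, mt-Nd1 was 5.73% to 6.16% in the unchallenged and 6.3% to 8.14% in the challenged libraries, and the groups still did not overlap.

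By group on this scale, mt-Co3 was lower in sensitized than in PBS controls without overlap (1 of 15 members, beside 2.78% of all genes). At 30 min mt-Nd1 was higher and mt-Co1 lower than in sensitized controls (2 members, beside 3.83%). At 60 min mt-Nd1, mt-Nd4l, mt-Nd5, mt-Nd6 and mt-Atp8 were higher and mt-Co1 lower (6 members, beside 1.76%). At 120 min mt-Nd1, mt-Nd5 and mt-Nd6 were higher (3 members, beside 28.0%), and against 60 min mt-Nd4 and mt-Nd4l were lower (2 members, beside 4.88%). With the counts of the nuclear copies added, mt-Co1 was also lower at 120 min than in sensitized controls, and against 60 min mt-Nd5 took the place of mt-Nd4. The other members without overlap were the same as without the copies. A share close to the background is no result about the members. Nearly all genes of this background are nuclear and carry the spread of the mitochondrial total, which is divided out of the members. It is thus not a like background, and a higher share of members is no result about them either. The shares of 1 total are also not independent of each other. mt-Co1 was 21.03%, 21.06% and 20.68% in sensitized controls, then 20.29%, 20.33% and 19.62% in the 30 min libraries and 20.15%, 19.06% and 15.2% in the 60 min libraries. The PBS controls (20.3% to 21.13%) overlapped the 30 min libraries, and the 120 min libraries (19.86% to 20.88%) overlapped the sensitized controls.

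**Figure D4:**
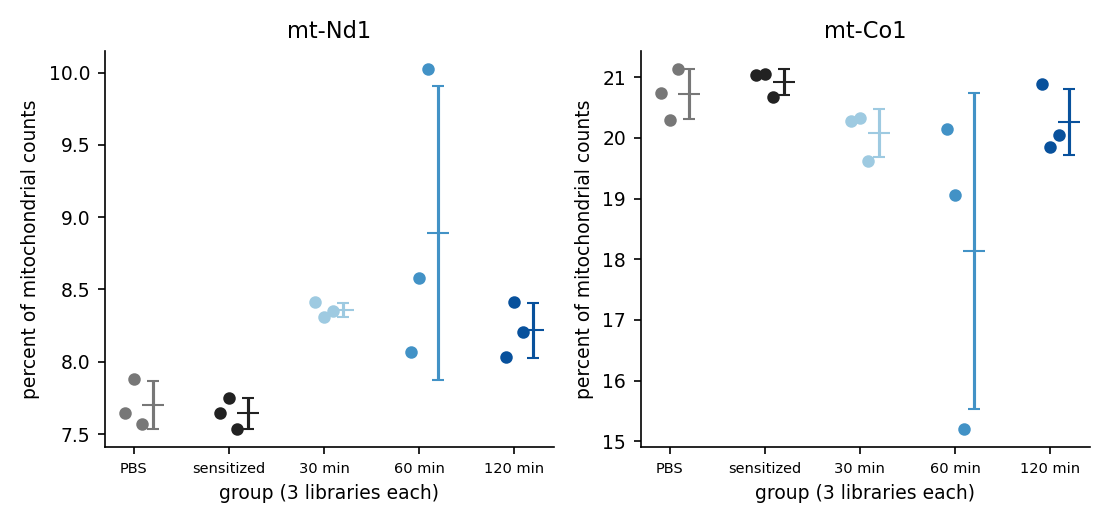
Percent of a library's mitochondrial counts taken by mt-Nd1 (left) and mt-Co1 (right) in each library, by group, with means and SDs (n = 3) beside the points. The vertical axes do not start at 0. For mt-Nd1 the 6 unchallenged libraries lie between 7.53% and 7.88% and the 9 challenged ones between 8.03% and 10.03%.

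With the summed mitochondrial counts as the library size, edgeR called 0 of 15 members in each comparison and in the joint test, and none had an unadjusted p under 0.05. limma-voom on the same library sizes also called 0. The calls over all genes were 4 in sensitized against PBS controls (0.0267%), 19 at 30 min (0.127%), 3 at 60 min (0.0200%), 35 at 120 min (0.234%), 25 between 60 and 120 min (0.167%) and 148 in the joint test (0.989%). For mt-Nd1 the log2 fold change against sensitized controls was 0.13 ± 0.47 at 30 min, 0.22 ± 0.47 at 60 min and 0.1 ± 0.47 at 120 min. This fit takes its spread from all genes, most of them nuclear, and its standard errors exceed every one of these differences. It could not show differences in make-up of this size.

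The list of nuclear genes for oxidative phosphorylation subunits includes Sdha, Sdhb, Sdhc and Sdhd of complex II, which has no mitochondrially encoded subunit. Over the whole list the mean changes had a median of opposite sign to that of the mitochondrial genes at 60 min. Without 60 min replicate 3 both medians had the same sign (-0.20 and -0.54). Of 79 tested, 75 were lower on average at 60 min than in sensitized controls and 4 higher, with a median log2 fold change of -0.36 beside -0.02 over all genes, and none passed the test. At 120 against 60 min 77 of 79 were higher, with a median of 0.39, and 1 passed, beside 1.12% of all genes, a share close to the background. That gene was Cyc1, cytochrome c1 of complex III, with 225 CPM ± 16.7 at 60 min and 310 CPM ± 25.7 at 120 min (SD, n = 3), a log2 fold change of 0.46 ± 0.11 and an adjusted p of 0.0488 in edgeR. In this comparison 0 of these genes passed with TMM factors from nuclear-encoded genes, with library totals, with no filter or with only the 2 groups fitted. DESeq2 called 20 of 79, beside 6.35% of all genes. The summed level of the 86 genes on the list was 11660, 10250 and 9134 CPM at 60 min, and 60 min replicate 3, the highest in mitochondrial share, was the lowest of all 15 libraries. The other 14 libraries had 10250 to 13950 CPM. Without that library the medians were -0.20 and 0.24, and none of 79 passed in either comparison. Without 60 min replicate 1, 17 of 79 passed against sensitized controls, beside 2.5% of all genes. At 120 against 60 min 42 of 79 passed in that fit, beside 7.46% of all genes. In the other comparisons 0 passed and the medians were 0.08 (sensitized against PBS), -0.10 (30 min) and 0.04 (120 min against sensitized).

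Among 78 genes of mitochondrial ribosomal proteins, all 78 were higher on average at 120 than at 60 min, with a median of 0.26, and none passed in edgeR. The 3 lowest p-values for any difference belonged to Mrps6, Mrps28 and Mrps30, and at 120 against 60 min Mrps28 was at 0.70 ± 0.19 with an adjusted p of 0.0799. DESeq2 called 3 of 78, beside 6.35% of all genes, so the share was no higher than the background. Without 60 min replicate 1 edgeR called 9 of 78, beside 7.46% of all genes. Without 60 min replicate 3, 68 of 78 were higher and the median was 0.16, and without 120 min replicate 3, 63 were higher. None of 16 genes for transcription and replication of mitochondrial DNA passed in any of the 5 comparisons. Tfb1m, which methylates the small-subunit rRNA, was at -0.88 ± 0.29 at 120 min against sensitized controls with an adjusted p of 0.136 in edgeR. Mterf2 was at -0.61 ± 0.24 and Mterf1a at -0.28 ± 0.47. Of 26 genes for processing and stability of mitochondrial RNA none passed, and the lowest p for any difference were those of Fastk (-0.40 ± 0.12 at 120 min, adjusted p of 0.0962 in edgeR), Mtpap, the mitochondrial poly(A) polymerase (0.24 ± 0.13), and Tbrg4 (0.29 ± 0.10). None of 8 regulators of mitochondrial biogenesis passed. Nrf1, a transcription factor of nuclear genes for respiratory subunits, was at 0.47 ± 0.12 at 120 min with an adjusted p of 0.0636 in edgeR, Pprc1 at 0.53 ± 0.16 and Esrrg at 0.11 ± 0.28. None of 14 genes for mitochondrial proteases, chaperones and mitophagy passed, with Gdf15 at 0.87 ± 0.34, Hspa9 at 0.44 ± 0.14 and Lonp1 at 0.29 ± 0.15 in the same comparison.

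Relations of mt-Co1 with 11 other measures were computed over the 15 libraries, on log2 CPM of the nuclear-encoded counts. The copy was not added to mt-Co1, but the nuclear-encoded counts include all copies, which took 3.76% to 8.35% of a library. Their counts rose with mt-Co1, so this scale lowers the other genes where mt-Co1 is high. How much this moved r was not tested. With the groups pooled none of the relations passed after adjustment. Cox4i1, a nuclear subunit of the same complex IV, had a Pearson r of -0.511 (permutation p = 0.0497, adjusted 0.255) and a Spearman rho of -0.389 (permutation p = 0.152, adjusted 0.556). In 60 min replicate 3 mt-Co1 was at 75700 and Cox4i1 at 288 CPM of the nuclear-encoded counts, and in the other libraries Cox4i1 was at 450 to 583. On deviations from the group means r was -0.718 (permutation p = 0.00106, adjusted 0.0117) and rho -0.636 (permutation p = 0.0123, adjusted 0.136). These permutations treated the 15 deviations as free although the group means had been removed, so both p are likely too small. Without 60 min replicate 3 and sensitized replicate 3, the libraries farthest from the median of mt-Co1, that r was -0.6 and the pooled one -0.403. For Tfam, which packages mitochondrial DNA, r was -0.484 (permutation p = 0.0695, adjusted 0.255; rho -0.232, permutation p = 0.403, adjusted 0.985), and without those libraries -0.187. For Slirp, which stabilizes mitochondrial mRNAs, r was -0.409 (permutation p = 0.131, adjusted 0.362; rho -0.525, permutation p = 0.0478, adjusted 0.377), and -0.191 without them. For Ptprc, the leukocyte gene of CD45, r was 0.534 (permutation p = 0.0415, adjusted 0.255; rho 0.486, permutation p = 0.0685, adjusted 0.377), and 0.418 without them. The other measures, Polrmt, Lrpprc, Ppargc1a, Sis, Mki67, Malat1 and total counts, had r from -0.248 to 0.193, with adjusted permutation p of 0.755 or more.

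The 5 nuclear genes whose level across the 15 libraries was most like that of mt-Co1, among 9865 genes with a mean of at least 5 CPM, were Gm13340 (r = 0.997), Gm13341 (0.969), Gm13339 (0.962), Gm28438 (0.934) and Kdelr2 (0.863). The first 4 are copies of mitochondrial DNA. Kdelr2 encodes a receptor that returns proteins to the endoplasmic reticulum.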

How the data were processed

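RNA was measured in 15 libraries, 3 per group. The submitters' processing notes name cutadapt 1.18, Salmon 1.2.1 and mm10, with no annotation release. Per the file headers, the deposited tables give the authors' estimated count and TPM of 139058 transcripts, with lengths. Estimated counts were summed to 52844 genes with GENCODE M21 (1115 transcripts, 0.374% to 0.602% of counts, matched no gene) and rounded. Shares are percentages of all estimated counts. edgeR 4.0.16 in R 4.3.3 (filterByExpr, TMM, robust quasi-likelihood fit over 5 group means, 10 residual degrees of freedom) was the test, with Benjamini-Hochberg adjustment over 14968 genes and a threshold of 0.05. It was checked on simulated counts for 60 min against sensitized controls, where it called 193 of 200 genes changed 4-fold and 5 of the other genes, of 14490 tested. Its common coefficient of variation was 0.26, and 0.457 with mitochondrial totals as library sizes. limma 3.58.1 and DESeq2 1.42.0 were alternatives, with other scalings, no filter and each library left out. blastn 2.17.0 found nuclear copies. Correlations used 100000 permutations. Named were all mRNAs and rRNAs, list genes past the threshold or else the 3 with the lowest p for any difference, the genes of the relations, copies, and the 5 most alike genes. Members and lists were chosen with earlier results of these data known.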

Additional observations from a re-analysis of the deposited data

How the results depend on the processing

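The 5 group means of the mitochondrial share kept their order in TPM, with only mRNAs, with only matched transcripts and with copies added. With 1 library left out, the mean at 60 min ran from 16.06% to 25.62%, and at the low end it was below the PBS, sensitized and 30 min means. In TPM the means were 42.43% (PBS), 44.46% (sensitized), 40.75% (30 min), 45.93% (60 min) and 38.86% (120 min). With nuclear copies added they were 25.37%, 26.65% and 24.26% for the first 3 groups and 19.50% at 120 min. Over all fits that kept every library, 0 members passed in any comparison. The count of members called was 0 to 1 between 60 and 120 min with 1 library left out, the 1 being mt-Nd5 without 60 min replicate 1. The count of all genes called was less stable. DESeq2 called 6 (sensitized against PBS), 6 (30 min), 189 (60 min), 845 (120 min), 950 (120 against 60 min) and 1121 (joint test). With no filter the counts were 49, 282, 279 and 380 from 60 min on in that order, and with library totals and no TMM factor 0, 24, 4 and 6. That last scaling put the median log2 fold change of all genes at 0.11 at 30 min. With mitochondrial totals as library sizes that median was 0.17 at 30 min and 0.40 at 120 min. limma-voom called 0 genes at 60 min and 26 in the joint test. With only the 2 groups fitted, 0 genes were called at 60 min and 0 between 60 and 120 min. The cause of these changes was not tested, except that the last fit has fewer samples. Leaving out 1 library gave 0 to 1 genes at 30 min, 0 to 385 at 60 min, 7 to 243 at 120 min, 0 to 1151 between 60 and 120 min and 0 to 180 in the joint test. Of the 11 relations, 1 passed on deviations from group means, by a permutation p that is likely too small.

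Directions of single members turned in sensitized against PBS controls, at 30 and 60 min and between 60 and 120 min. With 1 library left out, the log2 fold change for sensitized against PBS controls ran from -0.41 to 0.57 for mt-Rnr1, -0.21 to 0.39 for mt-Nd1, -0.18 to 0.43 for mt-Co1, -0.10 to 0.31 for mt-Nd5 and -0.19 to 0.45 for the members' median. At 30 min it ran from -0.28 to 0.21 for mt-Nd1, -0.47 to 0.02 for mt-Co1, -0.30 to 0.13 for mt-Nd5 and -0.40 to 0.08 for the median. At 60 min the ranges were -1.07 to 0.28 for mt-Rnr1, -0.40 to 0.83 for mt-Nd1, -0.64 to 0.19 for mt-Co1, -0.25 to 0.95 for mt-Nd5 and -0.54 to 0.59 for the median. Between 60 and 120 min they were -1.05 to 0.30 for mt-Rnr1, -0.72 to 0.06 for mt-Co1 and -1.10 to 0.01 for the median. With limma-voom mt-Rnr1 was at 0.06 in sensitized against PBS controls, and with library totals mt-Nd1 was at 0.01 at 30 min. These values are close to 0 on both sides. The alternative with nuclear copies added was chosen after seeing the data and turned no member's direction. It gave member medians of 0.15, -0.26, 0.17, -0.53 and -0.75 in the 5 comparisons. No paired analysis was possible because the labels give the groups no shared replicate numbers. Groups of 3 libraries limit what can be shown. The standard errors of the members ran from 0.33 to 0.55 on the log2 scale and exceeded 45 of their 75 differences.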
